A study of Mus musculus with 13 samples.

Results

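The genes described here encode the proton pump, the hydrolases and the membrane proteins of the lysosome in mouse natural killer (NK) cells. They were chosen by symbol and comprise the subunits and accessory proteins of the vacuolar proton pump, the cathepsins other than *Ctsw*, the membrane proteins *Lamp1* and *Lamp2*, glycosidases such as *Hexa* and *Glb1*, the cholesterol carriers *Npc1* and *Npc2*, and the transcription factors *Tfeb* and *Tfe3*. The rule found 41 of the 11989 genes in the deposited table. All 41 passed the filter on low values, and they fell into 10 V1 subunits, 8 V0 subunits and 2 accessory proteins of the pump, 11 cathepsins, 4 glycosidases, 4 membrane and cholesterol proteins and 2 transcription factors.

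RNA was sequenced from 13 samples of splenic NK cells of wild-type C57BL/6 mice. The study compared cells grown in IL-15, a growth factor for NK cells, with naive cells, and asked how each responds to antibody against the activating receptor NK1.1. Cells kept for 72 hours in HD IL-15 were stimulated for 6 hours with anti-NK1.1 (n = 3) or left unstimulated (n = 2), and cells kept for 72 hours in LD IL-15 were analysed only after 6 hours of anti-NK1.1 (n = 2). Naive cells, with no IL-15 treatment and no culture time in the labels, were stimulated for 6 hours with anti-NK1.1 (n = 3) or left unstimulated (n = 3). Unstimulated samples are recorded with 0 hours of stimulation, and no matching 6 hours of incubation without antibody is given for them. In each response, effects of anti-NK1.1 and of those 6 hours therefore cannot be told apart. HD and LD are not spelled out in the labels. Nor do they tie replicates to separate animals or cultures, so p-values here reflect only sample-to-sample spread, part or all of which may be technical.

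Lysosomes are acidified by the vacuolar proton pump, in which a cytosolic V1 sector splits ATP and turns a membrane ring of the V0 sector that carries protons inward. Acid activates the hydrolases, among them the cathepsins, which cut proteins, and the glycosidases, which trim sugars from lipids and glycoproteins. LAMP proteins line the membrane, and the NPC proteins pass cholesterol out of the lysosome. In NK cells the granules that hold perforin and granzymes are lysosome-related organelles, whose LAMP1 reaches the cell surface when they are released, and TFEB and TFE3 are transcription factors that act on many lysosomal genes.

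Levels are given as CPM, the back-transformed value scaled to its library's total. The authors' values had been brought to 1 common distribution, so depth was read from the order of values within a library, which gave 112 to 463 reads for the median gene and 155 to 809 genes without a read. Changes are log2 differences ± standard error from limma fitted across 11543 genes in all 13 libraries, and a gene was called at a Benjamini-Hochberg adjusted p under 0.05. The file header places the libraries in 2 pools, with all 5 HD libraries and LD replicate 1 in pool 1, and LD replicate 3 and all 6 naive libraries in pool 2, so pool and culture cannot be told apart where HD is compared with naive cells, while each response to anti-NK1.1 lies within 1 pool. All 12 NK cell markers were read in every group. In HD against naive cells 2 of them were higher and 6 lower without stimulation, and 3 were higher and 5 lower after anti-NK1.1, with medians of -0.95 and -0.57. Markers of other cell types are described with the cathepsins. In bulk RNA, fewer cells of a type and less RNA per cell cannot be told apart.

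Per kilobase of exon, cathepsin D (*Ctsd*) stood highest among the 41 genes in unstimulated naive cells, at 369 CPM per kb, followed by the V1 subunit *Atp6v1f* at 236, cathepsin S (*Ctss*) at 112 and the V1 subunit *Atp6v1g1* at 105. In HD anti-NK1.1 cells the order changed at the top, with *Atp6v1f* at 151 CPM per kb, *Ctsd* at 118 and *Atp6v1g1* at 102. Summed over the 11 cathepsins, the level was 596 to 630 CPM in HD anti-NK1.1 libraries against 1020 to 1379 CPM in HD unstimulated libraries, and 744 to 969 CPM in naive anti-NK1.1 libraries against 1575 to 1606 CPM in naive unstimulated libraries. *Ctsd* carried a large part of these sums. Without it the other 10 cathepsins summed to 322 to 343 CPM in HD anti-NK1.1 against 393 to 466 CPM in HD unstimulated libraries, and to 406 to 552 CPM in naive anti-NK1.1 against 703 to 743 CPM in naive unstimulated libraries. None of these pairs of ranges overlapped. The 20 pump genes together varied less, from 1228 to 1352 CPM in HD anti-NK1.1, 1277 to 1291 CPM in HD unstimulated, 1090 to 1368 CPM in LD anti-NK1.1, 1061 to 1330 CPM in naive anti-NK1.1 and 1244 to 1556 CPM in naive unstimulated libraries.

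In naive cells, 8 of the 15 hydrolases fell after anti-NK1.1, while 2 of the 20 pump genes rose and 1 fell. Of the 41 genes 2 rose and 10 fell, and 29.2% of all genes tested were called in this comparison, 14.5% higher and 14.7% lower. Those that fell included the glycosidases *Hexa* and *Glb1*, the cathepsins *Ctsa*, *Ctsd*, *Ctss* and *Ctsc*, the V1 subunit *Atp6v1e1* and the transcription factor *Tfeb*. The 2 that rose were the V1 subunit *Atp6v1c1* and the V0 subunit *Atp6v0c*, the second on very few reads. The median change was -0.26 over the 41 genes, -0.57 over the 15 hydrolases and 0.05 over the 20 pump genes, beside 0.01 over all genes tested. *Ctsd*, *Ctsa*, *Ctss*, *Atp6v1e1* and *Atp6v0c* were called whichever library was left out, while *Hexa*, *Glb1*, *Ctsc*, *Tfeb* and *Atp6v1c1* each missed the threshold without at least 1 library. Without naive unstimulated replicate 1 the count was 7, and *Glb1*, *Hexa*, *Ctsc* and *Tfeb* missed it (adjusted p from 0.0538 to 0.123).

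In HD cells, 5 of the 20 pump genes rose after anti-NK1.1, and 2 hydrolases and both NPC genes fell. Of the 41 genes 6 rose and 4 fell, beside 33.1% of all genes called, 15.9% higher and 17.2% lower. The 6 that rose were the V0 subunits *Atp6v0a4* and *Atp6v0a1*, the V1 subunits *Atp6v1e1* and *Atp6v1h*, the accessory protein *Atp6ap2* and *Tfeb*. Those that fell included *Ctsd*, *Npc2* and *Npc1*. The median change was -0.12 over the 41 genes and 0.08 over the pump genes, beside -0.01 over all genes. There were 2 HD unstimulated libraries, and without the first of them *Atp6v0a1*, *Atp6v0a4*, *Atp6ap2*, *Tfeb*, *Atp6v1h* and *Npc1* missed the threshold (adjusted p from 0.0513 to 0.327), while *Lamp1* passed it (-0.96, adjusted p = 0.0241), for a count of 5. Without the second, *Npc1* and *Npc2* missed it (adjusted p = 0.054 and 0.118). *Ctsd* and *Atp6v1e1* were called whichever library was left out.

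The difference between both responses was tested as an interaction. Of the 41 genes 3 responded more positively in HD than in naive cells and 0 less positively at adjusted p under 0.05 by limma, beside 15.2% of all genes called, 7.22% higher and 8.01% lower. These 3 were *Atp6v1e1*, *Tfeb* and *Atp6ap2*. At an unadjusted p under 0.05, 2 genes responded less positively, *Atp6v0c* and *Npc2*. Of the 15 hydrolases, 8 were called in naive cells and 2 in HD cells, but limma called the difference between the responses for 0. At an unadjusted p under 0.05 it passed for 3, *Ctsa*, *Ctsh* and *Ctss*, all higher in HD cells, and the median difference was 0.34. Without naive anti-NK1.1 replicate 1 the difference was called for 5 of the 41 genes, with *Atp6v0a4* (3.90, adjusted p = 0.0448) and *Ctsh* (1.78, adjusted p = 0.0304) added. Without HD unstimulated replicate 2 it was called for 2 genes in the positive direction and for *Atp6v1d* in the negative one (-1.68, adjusted p = 0.0364).

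Unstimulated HD cells had lower levels of many cathepsins than unstimulated naive cells. Of the 41 genes 1 was higher and 12 were lower, beside 33.9% of all genes called, 16.6% higher and 17.3% lower. The lower ones were 6 cathepsins (*Ctsh*, *Ctsg*, *Ctse*, *Ctss*, *Ctsl* and *Ctsa*), *Hexa*, *Lamp1*, *Tfeb*, *Atp6v1e1* and both accessory proteins of the pump, and the higher one was *Atp6v0a4*. Without HD unstimulated replicate 1 the count was 7, and *Atp6ap1*, *Atp6ap2*, *Ctsa*, *Hexa*, *Lamp1* and *Ctsg* missed the threshold (adjusted p from 0.055 to 0.254). With library pool as a factor, whose effect rests on the 2 LD libraries, the only group in both pools, 5 of the 13 were called, *Ctsh*, *Ctse*, *Ctss*, *Tfeb* and *Atp6v1e1*.

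After anti-NK1.1, HD cells differed from naive cells in 15 of the 41 genes, 4 higher and 11 lower, beside 43.5% of all genes called, 21.1% higher and 22.4% lower. The higher ones were the pump genes *Atp6v0a4*, *Atp6v0a1*, *Atp6v1e1* and *Atp6v1a*. The lower ones were the cathepsins *Ctsh*, *Ctse*, *Ctsg*, *Ctsl*, *Ctss* and *Ctsb*, the membrane and cholesterol proteins *Lamp1*, *Npc1* and *Npc2*, and the V0 subunits *Atp6v0c* and *Atp6v0d1*. With pool as a factor 2 of the 15 were called, *Ctsh* and *Ctse*. *Atp6v0a1*, *Atp6v0c*, *Atp6v1a*, *Ctsb* and *Ctsg* each missed the threshold without at least 1 library.

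LD cells differed from naive cells after anti-NK1.1 in 5 genes, with *Ctsg* higher and *Ctsh*, *Ctse*, *Atp6v1g3* and *Npc2* lower, beside 13.6% of all genes called, 6.57% higher and 7% lower. HD cells differed from LD cells after anti-NK1.1 in 4 genes, with *Atp6v0a4*, *Atp6v1g3* and *Atp6v1e1* higher and *Ctsg* lower, beside 8.6% of all genes called, 3.27% higher and 5.33% lower. Within pool 1, without LD replicate 3, the *Ctsg* call alone was made between HD and LD cells. That count was 2 without LD replicate 1, HD anti-NK1.1 replicate 1 or HD anti-NK1.1 replicate 3. Within pool 2, without LD replicate 1, the comparison of LD with naive cells gave 3 calls, *Ctsh*, *Ctse* and *Atp6v1g3*, and these 3 were also called without naive anti-NK1.1 replicate 5. The LD and HD comparisons with naive anti-NK1.1 cells share the 3 naive libraries.

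**Figure D1:**
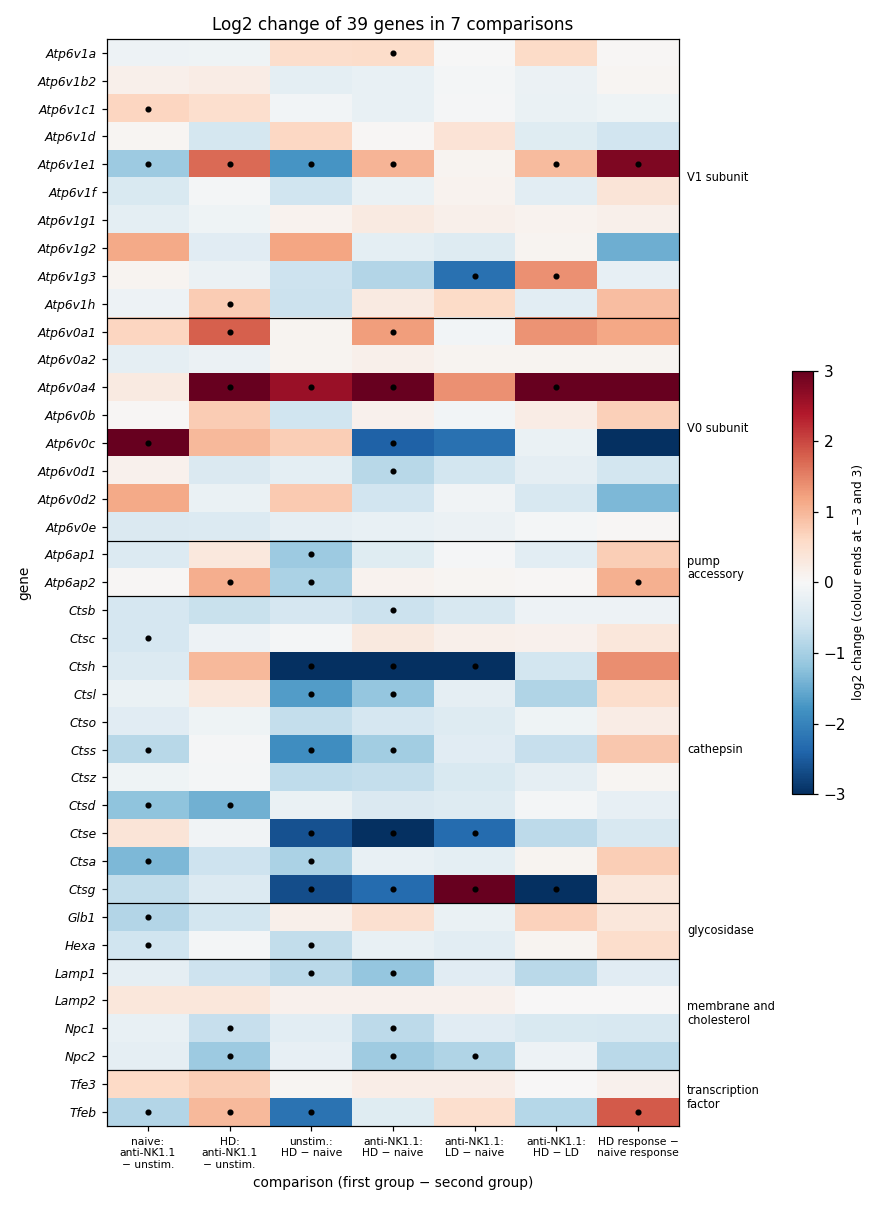
Log2 change of 39 genes (rows, grouped by role) in the 7 comparisons (columns); red is higher in the first-named group, blue is lower, colour ends at -3 and 3, and a dot marks an adjusted p under 0.05 by limma. Blue dotted cells mark several hydrolases in the naive response and several cathepsins in both columns of HD against naive cells, while *Atp6v1e1* and *Tfeb* are blue in the naive response and red in the HD response.

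*Hexa* encodes a subunit of a lysosomal enzyme that trims gangliosides. It fell in naive cells to 34.5 ± 3.22 CPM after anti-NK1.1 against 51.8 ± 2.47 CPM without it (SD, n = 3 each), a change of -0.59 ± 0.19 (adjusted p = 0.0328). In HD cells it averaged 29.6 ± 1.21 CPM after anti-NK1.1 (n = 3) and 31.6 ± 9.10 CPM without it (n = 2), a change of -0.06 ± 0.21 that was not called. *Hexa* was lower in unstimulated HD than in unstimulated naive cells (-0.74 ± 0.21, adjusted p = 0.0159), a call lost without HD unstimulated replicate 1. *Hexa* shares 255 exon bases with *Tmem202* on the opposite strand, and whether counting used strand is not given, so reads from shared exons of opposite strands cannot be told apart. *Glb1*, the lysosomal beta-galactosidase, fell in naive cells by 0.88 ± 0.26 on the log2 scale (adjusted p = 0.0199), with 33.8, 41.9 and 25.7 CPM after anti-NK1.1 against 90.6, 57.9 and 43.7 CPM without it. The naive unstimulated libraries spread widely, and the lowest of them lay close to the highest stimulated one. In HD cells *Glb1* changed by -0.55 ± 0.29 and was not called.

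*Ctsd* (chr7:142375911-142388038, mm10, minus strand), an aspartic protease and the cathepsin with the highest level per length here, fell after anti-NK1.1 in both kinds of cell. It averaged 278 ± 8.92 CPM in HD anti-NK1.1 (n = 3) and 770 ± 202 CPM in HD unstimulated libraries (n = 2), where the change was -1.45 ± 0.20 (adjusted p = 9.87e-05). In naive cells it averaged 378 ± 39.4 CPM after anti-NK1.1 and 867 ± 32.2 CPM without it (n = 3 each), a change of -1.20 ± 0.18 (adjusted p = 2.46e-04). The LD anti-NK1.1 libraries, at 273 and 306 CPM, lay among the stimulated ones. *Ctsd* shares 808 exon bases with the gene model *Gm49369* on the same strand.

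*Ctsa*, a serine carboxypeptidase that also protects beta-galactosidase and neuraminidase, fell to 36.5 ± 4.31 CPM in naive anti-NK1.1 cells, against 92.4 ± 10.2 CPM in naive unstimulated cells (n = 3 each). The change of -1.34 ± 0.22 (adjusted p = 4.89e-04) was larger than that of any other cathepsin called in this comparison. In HD cells *Ctsa* averaged 31.1 ± 3.38 CPM after anti-NK1.1 and 48.0 ± 11 CPM without it, and the change of -0.61 ± 0.25 was not called (adjusted p = 0.0719). *Ctsc*, which cuts the activation peptide from granzymes, fell in naive cells by 0.51 ± 0.17 on the log2 scale, to 96.3 ± 13.6 CPM after anti-NK1.1 against 137 ± 16.5 CPM without it (adjusted p = 0.0407). It showed no other call in the 7 comparisons.

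**Figure D2:**
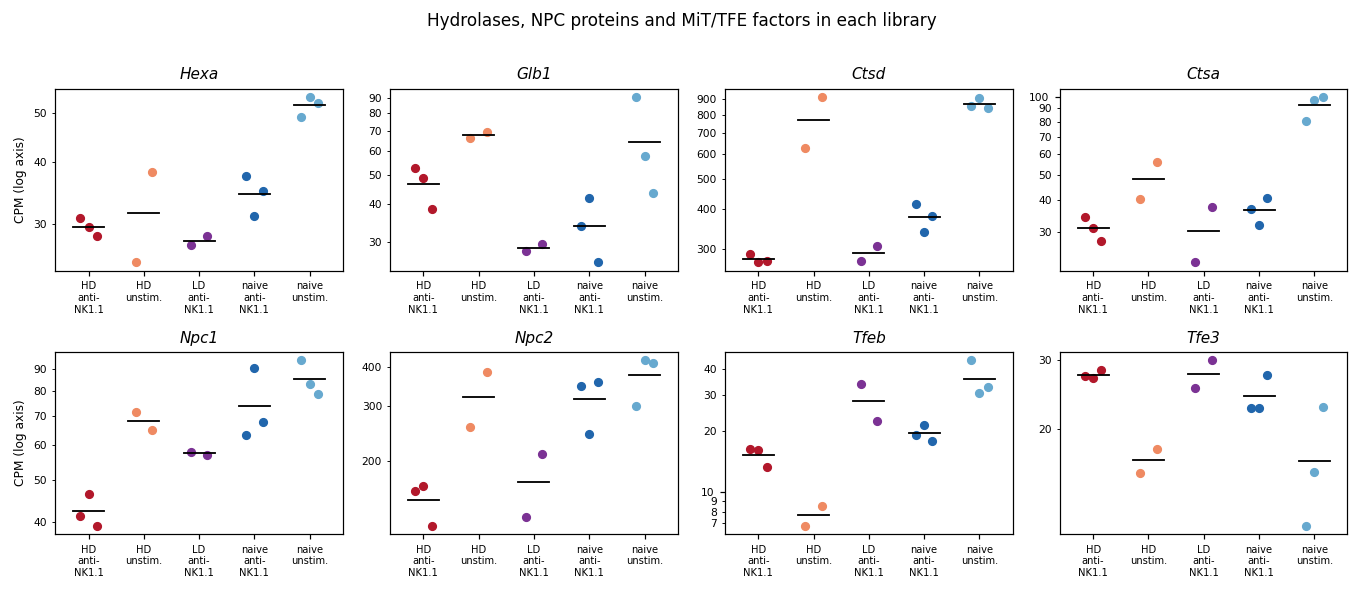
Level of 4 hydrolase genes, *Npc1*, *Npc2*, *Tfeb* and *Tfe3* in each library (points, CPM on a log axis) with the group mean (line), for the 5 groups. *Ctsd* is low in all 8 stimulated libraries and high in all 5 unstimulated ones, while *Tfeb* is lowest in the HD unstimulated libraries.

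TFEB and TFE3 recognise DNA that holds the hexamer CACGTG, which many other factors with the same kind of DNA-binding domain also recognise. In the RefSeq promoter table (GRCm38.p6, 300 bases per start, 250 before it and 50 from it on), 29 of the 41 genes had a window, 36 windows in all. CACGTG, which reads the same on both strands, was found in 9 of the 36 windows (25%), beside 7.15% of the 32851 windows in the table. With T before and A after it, a stricter form that overlaps the first, it was found in 5 windows (13.9%), beside 0.974% of all windows. The promoter table covers 27025 genes, against 11989 in the expression data, so its shares are not shares over genes read in these cells. The 9 genes were *Atp6v0b*, *Atp6v0d1*, *Atp6v0e*, *Atp6v1a*, *Ctsa*, *Ctsd*, *Ctsl*, *Glb1* and *Lamp1*. Of these *Ctsa*, *Ctsd* and *Glb1* fell after anti-NK1.1 in naive cells, and they are shown with *Lamp1*, which has 4 copies. Each stretch is the 120 bases before the RefSeq start of the window, 5′ to 3′ on the gene's strand, with CACGTG in capitals.
Ctsd: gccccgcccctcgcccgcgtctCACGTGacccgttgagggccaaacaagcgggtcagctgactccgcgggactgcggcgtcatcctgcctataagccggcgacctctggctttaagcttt
Ctsa: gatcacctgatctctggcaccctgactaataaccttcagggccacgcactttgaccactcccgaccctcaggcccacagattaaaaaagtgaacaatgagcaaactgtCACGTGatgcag
Glb1: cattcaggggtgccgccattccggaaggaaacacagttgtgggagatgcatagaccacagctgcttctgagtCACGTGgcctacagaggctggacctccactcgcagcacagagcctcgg
Lamp1: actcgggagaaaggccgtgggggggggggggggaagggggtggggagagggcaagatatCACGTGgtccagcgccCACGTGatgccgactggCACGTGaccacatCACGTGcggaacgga

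The *Ctsd* stretch lies at chr7:142387828-142387947 (minus strand), that of *Ctsa* at chr2:164833653-164833772, that of *Glb1* at chr9:114400958-114401077 and that of *Lamp1* at chr8:13159041-13159160, the last 3 on the plus strand. The first base of the hexamer stood at -98 in *Ctsd*, -12 in *Ctsa*, -48 in *Glb1* and -61, -45, -28 and -15 in *Lamp1*, counted from the base before the start as -1. *Ctsd* and *Ctsa* each hold a further copy outside the stretch shown, and *Ctsa* has another annotated start without the hexamer in its window. In the GENCODE annotation *Ctsd* spans chr7:142375911-142388038 and *Ctsa* begins at chr2:164832873, so both stretches lie wholly inside the annotated genes. For 30 of the 36 windows, the first 30 bases from the start were found in an annotated transcript of the gene. Of the 8 genes that fell in naive cells and had a window, 5 had no match, *Hexa*, *Ctsc*, *Ctss*, *Atp6v1e1* and *Tfeb*. A match is a description of the sequence and does not show that TFEB or TFE3 bound it.

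*Tfeb* (chr17:47737030-47792419, plus strand) moved in opposite directions in both kinds of cell. It was read at 16.2, 16.1 and 13.2 CPM in HD anti-NK1.1 libraries against 6.81 and 8.54 CPM in HD unstimulated libraries, and at 33.9 and 22.3 CPM in LD anti-NK1.1 libraries. In naive cells it was at 19.1, 21.4 and 17.7 CPM after anti-NK1.1, against 44.4, 30.7 and 32.8 CPM without it. The groups overlapped in neither response, and the unstimulated HD libraries were the lowest of the 13. *Tfeb* rose by 0.98 ± 0.26 in HD cells (adjusted p = 0.00994) and fell by 0.87 ± 0.23 on the log2 scale in naive cells (adjusted p = 0.0118), a difference of 1.85 ± 0.35 (adjusted p = 0.00268) that was called in all 19 alternatives. Without HD unstimulated replicate 1 the rise in HD cells missed the threshold (0.82, adjusted p = 0.0861), and without naive unstimulated replicate 1 the fall in naive cells did (-0.71, adjusted p = 0.0538). Unstimulated HD cells had 4.61-fold less *Tfeb* RNA than unstimulated naive cells (-2.21 ± 0.26, adjusted p = 1.85e-05). After anti-NK1.1 the difference between HD and naive cells was -0.36 ± 0.23 and was not called.

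*Tfe3* had no call in the 7 comparisons. It averaged 27.6 ± 0.713 CPM in HD anti-NK1.1 against 16.6 ± 1.69 CPM in HD unstimulated libraries, a change of 0.73 ± 0.27 (adjusted p = 0.0508). In naive cells it averaged 24.3 ± 2.77 CPM after anti-NK1.1 and 16.6 ± 5.82 CPM without it, a change of 0.60 ± 0.24 (adjusted p = 0.0772).

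The cathepsins that separated HD from naive cells were mostly ones that stimulation left uncalled. *Ctsh* (chr9:90054152-90076089, plus strand), a cysteine protease that removes residues from the amino terminus, was read at 2.31, 1.21 and 1.73 CPM in HD anti-NK1.1, 0.752 and 0.903 CPM in HD unstimulated, and 2.38 and 2.61 CPM in LD anti-NK1.1 libraries. It was at 35.4, 14.5 and 17.9 CPM in naive anti-NK1.1 and at 30.8, 22.6 and 31.8 CPM in naive unstimulated libraries. All 7 IL-15 libraries lay under 3 CPM and all 6 naive libraries above 14 CPM. *Ctsh* was 31.3-fold lower in HD than in naive cells without stimulation (-4.97 ± 0.39, adjusted p = 4.43e-07), 11.9-fold lower in HD than in naive cells after anti-NK1.1 (-3.57 ± 0.35, adjusted p = 2.74e-06) and 8.19-fold lower in LD than in naive cells (-3.03 ± 0.39, adjusted p = 2.27e-04). LD replicate 3 shared its pool with the naive libraries, and its level of 2.61 CPM was below all of them.

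*Ctse*, an intracellular aspartic protease, followed the same split at lower levels. It was read at 2.02, 1.64 and 0.577 CPM in HD anti-NK1.1, 1.22 and 1.49 CPM in HD unstimulated and 2.46 and 2.02 CPM in LD anti-NK1.1 libraries, against 11.5, 10.9 and 11.8 CPM in naive anti-NK1.1 and 6.93, 9.76 and 9.75 CPM in naive unstimulated libraries. No IL-15 library reached the level of any naive library. The difference was -2.62 ± 0.44 between HD and naive cells without stimulation (adjusted p = 3.82e-04), -3.11 ± 0.39 after anti-NK1.1 (adjusted p = 2.75e-05) and -2.32 ± 0.44 between LD and naive cells (adjusted p = 0.00349).

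*Ctss*, the cysteine protease that degrades the invariant chain of MHC class II in antigen-presenting cells, was lower in HD cells and also fell with stimulation in naive cells. Its level was 41, 37.4 and 41.4 CPM in HD anti-NK1.1, 43.6 and 37.9 CPM in HD unstimulated, 64.9 and 63.8 CPM in LD anti-NK1.1, 83.8, 72.4 and 91.7 CPM in naive anti-NK1.1, and 205, 132 and 118 CPM in naive unstimulated libraries. The 2 LD libraries lay between the HD and the naive stimulated ones, without overlap, but limma called LD cells different from neither. *Ctss* fell by 0.84 ± 0.21 on the log2 scale with anti-NK1.1 in naive cells (adjusted p = 0.00791) and changed by -0.03 ± 0.23 in HD cells, and the difference between the responses was not called (0.81 ± 0.31, adjusted p = 0.0981). HD cells were lower than naive cells without stimulation (-1.86 ± 0.23, adjusted p = 3.35e-05) and after it (-1.04 ± 0.21, adjusted p = 0.00118).

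*Ctsl*, a broadly acting lysosomal cysteine protease, was read at 6.65, 4.33 and 4.56 CPM in HD anti-NK1.1, 3.53 and 4.66 CPM in HD unstimulated, 8.25 and 11.2 CPM in LD anti-NK1.1, 17.4, 11.4 and 7.70 CPM in naive anti-NK1.1, and 12.5, 15.6 and 11.8 CPM in naive unstimulated libraries. The HD libraries were the 5 lowest. HD cells were lower than naive cells without stimulation (-1.68 ± 0.35, adjusted p = 0.00214) and after it (-1.17 ± 0.31, adjusted p = 0.00828). *Ctsl* shares 1742 exon bases with *Gm47123* on the opposite strand and 395 with the pseudogene *Gm49230* on its own strand.

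*Ctsg* encodes a serine protease of myeloid and mast cell granules and was read most in LD cells. Its reads numbered 0, 2 and 0 in HD anti-NK1.1, 0 and 1 in HD unstimulated, 122 and 183 in LD anti-NK1.1, 22, 9 and 3 in naive anti-NK1.1, and 23, 13 and 4 in naive unstimulated libraries. Per depth it was lower in HD than in LD cells after anti-NK1.1, by a ratio of 118 (95% counting interval 32.3 to 977, from 2 and 305 reads; limma adjusted p = 0.00136). It was higher in LD than in naive cells after anti-NK1.1 (3.31 ± 0.92, adjusted p = 0.0283), and lower in HD than in naive cells without stimulation by a ratio of 30.3 (interval 5.13 to 1220, from 1 and 40 reads; adjusted p = 0.0371). After anti-NK1.1 the HD and naive libraries overlapped, at a ratio of 17.9 (interval 4.59 to 154, from 2 and 34 reads; adjusted p = 0.0329). These intervals cover counting error only. With an offset of 8 the fitted difference of HD from naive cells missed the threshold both after anti-NK1.1 (-0.88, adjusted p = 0.113) and without it (-1.24, adjusted p = 0.0599). The comparison of LD with naive cells missed the threshold without either LD library or naive anti-NK1.1 replicate 4 or 5 (adjusted p from 0.0524 to 0.215), and that of HD with naive unstimulated cells without either HD library or naive replicate 1 or 4 (adjusted p from 0.0509 to 0.254).

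*Ctsb*, a cysteine protease of most tissues, was called once, lower in HD than in naive cells after anti-NK1.1 (-0.65 ± 0.23, adjusted p = 0.0369), at 110, 121 and 91.7 CPM in HD libraries against 205, 127 and 180 CPM in naive libraries. The 2 stimulated groups did not overlap. With library pool as a factor the difference was 0.01 (adjusted p = 0.995), and the call was also lost without HD anti-NK1.1 replicate 1 or 3 or naive anti-NK1.1 replicate 1 or 5. *Ctsb* shares 774 exon bases with *Fdft1* on the opposite strand. *Ctso* and *Ctsz* had no call in the 7 comparisons.

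**Figure D3:**
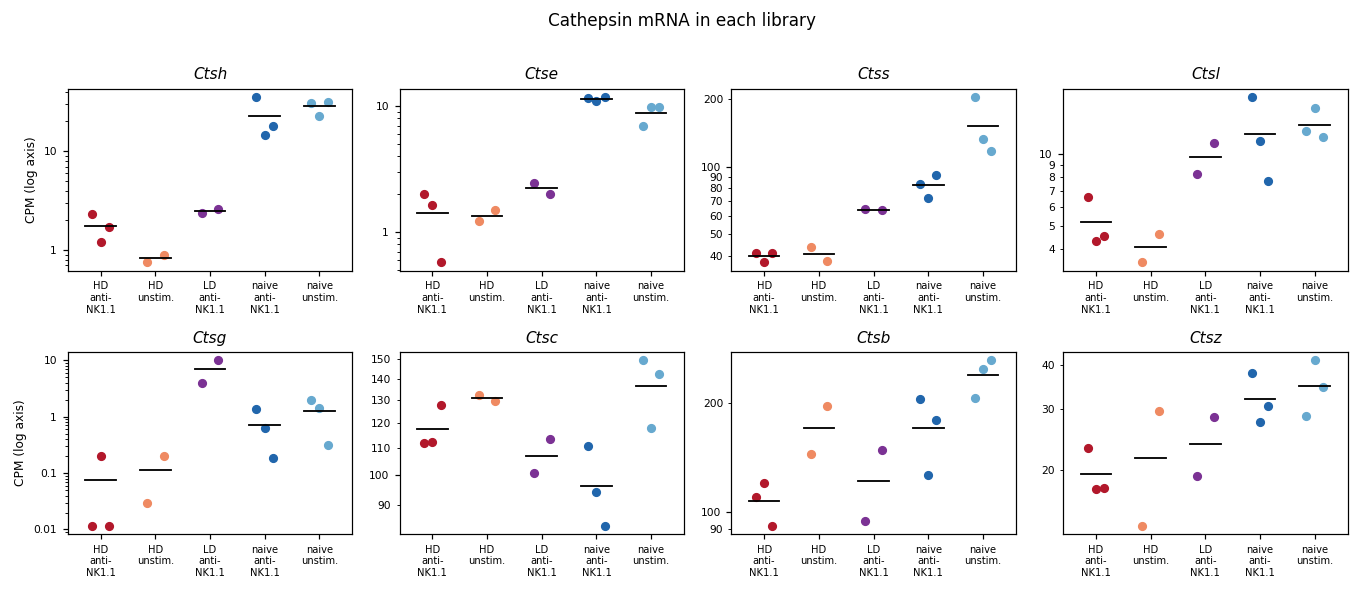
Level of 8 cathepsin genes in each library (points, CPM on a log axis) with the group mean (line), for the 5 groups; for *Ctsg*, points near 0.01 are libraries without a read. *Ctsh* and *Ctse* are low in all 7 IL-15 libraries, *Ctss* after anti-NK1.1 is lowest in HD cells, then LD, then naive cells, and *Ctsg* stands highest in LD cells. For *Ctss*, LD cells were called different from neither HD nor naive stimulated cells.

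Markers of some other cell types were also lower in HD than in naive cells, while T cell markers were mixed. Of 5 T cell markers tested, 2 were lower without stimulation, and 1 was higher and 2 lower after anti-NK1.1. Their summed level after anti-NK1.1 was 35.4 to 42.7 CPM in HD and 38.1 to 42.2 CPM in naive libraries. Of 5 B cell markers 4 were lower without stimulation and 2 after it, and of 4 neutrophil markers 2 were lower, only after anti-NK1.1. Of 19 macrophage, monocyte and dendritic cell markers in the table, 13 were lower in HD than in naive cells without stimulation and 10 after anti-NK1.1, with 0 higher by limma in either, also at an unadjusted p under 0.05. Their summed level was 103 to 137 CPM in HD anti-NK1.1, 176 to 249 CPM in HD unstimulated, 343 to 468 CPM in LD anti-NK1.1, 751 to 922 CPM in naive anti-NK1.1 and 833 to 970 CPM in naive unstimulated libraries. *Flt3*, *Siglech* and *Cd300e* had no read in any HD library, while *Cd68* was read in all 13, at 7.3 to 22 CPM. *Itgax*, which NK cells also express, made up the largest share of that sum in every library.

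Of 8 basophil and mast cell markers, 6 were lower and 1 higher in HD than in naive cells without stimulation, and 7 were lower after anti-NK1.1. Their summed level was 64.6 to 104 CPM in HD anti-NK1.1, 79.9 to 92.8 CPM in HD unstimulated, 177 to 207 CPM in LD anti-NK1.1, 163 to 298 CPM in naive anti-NK1.1 and 128 to 214 CPM in naive unstimulated libraries. *Kit* alone had 54.3 to 94.2 CPM in HD anti-NK1.1 libraries and 67.8 to 77 CPM in HD unstimulated libraries. Without it the other 7 markers summed to 9.81 to 22.6 CPM in HD anti-NK1.1, 12.1 to 15.7 CPM in HD unstimulated, 69.7 to 70.9 CPM in LD anti-NK1.1, 42.8 to 59.2 CPM in naive anti-NK1.1 and 111 to 171 CPM in naive unstimulated libraries. *Fcer1a* and *Ms4a2* had no read in any HD library, and 6 of the 8 markers were lower in HD than in LD cells after anti-NK1.1, where *Ctsg* was also lower. In LD against naive cells, where *Ctsg* was higher, 2 markers were higher and 1 lower. Without *Kit* the markers summed highest in naive unstimulated libraries, but *Ctsg* was at 1.98, 1.42 and 0.321 CPM there against 3.97 and 10 CPM in LD libraries. Limma called none of 4 neutrophil markers in either comparison with LD cells. Of 10 erythroid and platelet markers 9 were lower in HD than in naive cells in both comparisons, and the 4 globin genes had no read in any HD library. In the response of naive cells, 5 of the 19 macrophage, monocyte and dendritic cell markers and 4 of the 8 basophil and mast cell markers fell, beside 8 of the 12 NK cell markers, and 1 marker of each list rose. The part of these cells in the changes of the cathepsins and of the naive response was not tested.

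*Lamp1* (chr8:13159161-13175338, plus strand), whose product lines lysosomes and cytotoxic granules, was lower in HD than in naive cells. It averaged 44.3 ± 5.98 CPM in HD anti-NK1.1 (n = 3), 69.7 ± 22.5 CPM in HD unstimulated (n = 2), 77.9 ± 14.1 CPM in LD anti-NK1.1 (n = 2), 99.5 ± 18.6 CPM in naive anti-NK1.1 (n = 3) and 119 ± 8.34 CPM in naive unstimulated libraries (n = 3). The difference between HD and naive cells was -1.16 ± 0.22 after anti-NK1.1 (adjusted p = 7.69e-04) and -0.81 ± 0.24 without it (adjusted p = 0.0196), the second lost without HD unstimulated replicate 1 or naive unstimulated replicate 4. Neither response to anti-NK1.1 was called for *Lamp1*, at -0.62 ± 0.24 in HD cells (adjusted p = 0.0635) and -0.28 ± 0.22 in naive cells. *Lamp2*, which also serves chaperone-mediated autophagy, showed no call, with group means from 79.2 to 103 CPM, and its naive unstimulated libraries ranged from 46.7 to 128 CPM.

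*Npc2* binds cholesterol inside the lysosome and hands it to *Npc1* in the membrane. *Npc2* was read at 161, 166 and 124 CPM in HD anti-NK1.1 against 257 and 385 CPM in HD unstimulated libraries, at 132 and 210 CPM in LD anti-NK1.1, and at 348, 244 and 358 CPM in naive anti-NK1.1 against 299, 421 and 412 CPM in naive unstimulated libraries. The stimulated HD libraries lay below all HD unstimulated and all naive libraries. *Npc2* fell by 1.08 ± 0.28 on the log2 scale in HD cells (adjusted p = 0.00816) and changed by -0.26 ± 0.25 in naive cells, and the difference of -0.82 ± 0.37 was not called (adjusted p = 0.157). *Npc1* fell by 0.69 ± 0.20 in HD cells (adjusted p = 0.018), to 42.3 ± 3.74 CPM after anti-NK1.1 against 68.2 ± 4.52 CPM without it. After anti-NK1.1, HD cells were below naive cells in *Npc2* (-1.07 ± 0.25, adjusted p = 0.00325) and *Npc1* (-0.79 ± 0.18, adjusted p = 0.00324), and LD cells in *Npc2* (-0.91 ± 0.28, adjusted p = 0.0433), the last lost without LD replicate 1 or naive anti-NK1.1 replicate 1 or 5.

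Among the V1 subunits, *Atp6v1e1* changed most often. It lies at chr6:120794305-120822793 (minus strand) and encodes a form of subunit E, which forms the stalk that holds the V1 sector in place. Its level was 139, 99.5 and 137 CPM in HD anti-NK1.1 against 32.1 and 45.5 CPM in HD unstimulated libraries, and 73.2 and 57.0 CPM in LD anti-NK1.1. In naive cells it was 48.8, 73.4 and 63.7 CPM after anti-NK1.1, against 101, 159 and 141 CPM without it. Stimulated HD and unstimulated naive libraries were high, and unstimulated HD libraries were the lowest of the 13. *Atp6v1e1* rose 3.23-fold in HD cells (1.69 ± 0.27, adjusted p = 2.55e-04) and fell 2.15-fold in naive cells (-1.10 ± 0.24, adjusted p = 0.0034), a difference of 2.80 ± 0.36 (adjusted p = 1.56e-04) that was called in all 19 alternatives. HD cells were lower than naive cells without stimulation (-1.78 ± 0.27, adjusted p = 1.58e-04) and higher after it (1.02 ± 0.24, adjusted p = 0.00349), and higher than LD cells (0.94 ± 0.27, adjusted p = 0.0425), the last lost without either LD library or HD anti-NK1.1 replicate 1 or 3.

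The 3 tested forms of subunit G, also in the stalk, differed in level, and none was called in either response to anti-NK1.1. Per kilobase, *Atp6v1g1* stood at 102 CPM in HD anti-NK1.1, 115 in HD unstimulated, 94.9 in LD anti-NK1.1, 85.4 in naive anti-NK1.1 and 105 in naive unstimulated cells, with no call. *Atp6v1g2* stood at 0.625 to 1.41 and *Atp6v1g3* at 0.622 to 3.03 CPM per kb over the 5 groups. *Atp6v1g3*, the form known from kidney, was read at 2.58, 3.76 and 2.93 CPM in HD anti-NK1.1, 2.31 and 5.13 CPM in HD unstimulated, 0.845 and 1.5 CPM in LD anti-NK1.1, 4.94, 5.23 and 7.0 CPM in naive anti-NK1.1, and 5.14, 5.53 and 5.43 CPM in naive unstimulated libraries. The LD libraries were the lowest of the 13. LD cells were below naive cells (-2.25 ± 0.40, adjusted p = 0.00229), and HD cells were above LD cells (1.37 ± 0.40, adjusted p = 0.0455), a call lost without any 1 of the 5 libraries compared (adjusted p from 0.0644 to 0.283).

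Of the other V1 subunits 3 had 1 call each. *Atp6v1c1*, the regulatory subunit C, rose with anti-NK1.1 in naive cells to 39.3 ± 5.10 CPM against 25.1 ± 3.88 CPM in naive unstimulated cells (0.65 ± 0.21, adjusted p = 0.031). *Atp6v1h*, another regulatory subunit, rose in HD cells (0.77 ± 0.27, adjusted p = 0.0437), at 25.9, 23.2 and 17.6 CPM after anti-NK1.1 against 10.5 and 15.8 CPM without it. *Atp6v1a*, which carries the catalytic site, was higher in HD than in naive cells after anti-NK1.1 (0.55 ± 0.20, adjusted p = 0.0357), at 182, 254 and 206 CPM in HD libraries against 143, 120 and 178 CPM in naive libraries. Its partner *Atp6v1b2* and the subunits *Atp6v1d* and *Atp6v1f* had no call. The 2 HD unstimulated libraries disagreed on *Atp6v1d*, with 273 and 59.2 CPM, and without the second of them it was called lower in the HD response (-1.63, adjusted p = 0.00868) and higher in HD than in naive unstimulated cells (1.72, adjusted p = 0.00558).

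Subunit a of the V0 sector, which forms the path of the protons and directs the pump to its membrane, was represented by 3 forms. *Atp6v0a2* stood at 21.1 CPM per kb in HD anti-NK1.1, 23.8 in HD unstimulated, 19.8 in LD anti-NK1.1, 19.2 in naive anti-NK1.1 and 23.4 in naive unstimulated cells, and had no call. *Atp6v0a1* was lower per length, at 1.12, 0.312, 0.432, 0.486 and 0.314 CPM per kb in the same order. It was read at 9.14, 6.81 and 6.05 CPM in HD anti-NK1.1, 1.67 and 2.42 CPM in HD unstimulated, 2.46 and 3.21 CPM in LD anti-NK1.1, 4.07, 1.73 and 3.76 CPM in naive anti-NK1.1, and 1.03, 2.20 and 2.95 CPM in naive unstimulated libraries. The 3 HD anti-NK1.1 libraries were the highest. *Atp6v0a1* rose with anti-NK1.1 in HD cells (1.80 ± 0.48, adjusted p = 0.0101) and was higher there than in stimulated naive cells (1.25 ± 0.43, adjusted p = 0.0291). In naive cells its change was 0.64 ± 0.43, and the difference between the responses was not called (1.17 ± 0.64, adjusted p = 0.248).

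*Atp6v0a4* (chr6:38048483-38124586, minus strand), the form of subunit a known from the acid-secreting cells of the kidney, was read in numbers only in stimulated HD cells. It had 120, 160 and 155 reads in HD anti-NK1.1 libraries (11.6, 12.6 and 10.6 CPM), 2 and 19 reads in HD unstimulated, 15 and 6 in LD anti-NK1.1, 6, 0 and 2 in naive anti-NK1.1, and 0, 4 and 0 in naive unstimulated libraries. No other library came near the 3 stimulated HD libraries. The fitted change, which at so few reads depends on the offset of 1 in the deposited values, was 3.65 ± 0.86 with anti-NK1.1 in HD cells (adjusted p = 0.0048), 5.96 ± 0.77 against stimulated naive cells (adjusted p = 3.38e-05) and 4.59 ± 0.86 against stimulated LD cells (adjusted p = 0.00388). It was also higher in HD than in naive cells without stimulation (2.59 ± 0.86, adjusted p = 0.0311), where the groups overlapped and the call was lost without HD unstimulated replicate 2 or naive unstimulated replicate 1 or 6 (adjusted p from 0.0857 to 0.282). The rise in HD cells was 2.69 without HD unstimulated replicate 1 (adjusted p = 0.0792), and the difference from LD cells was 4.31 without LD replicate 3 (adjusted p = 0.0523). The difference between the responses was 3.36 ± 1.15 and missed the threshold (adjusted p = 0.0644), but with an offset of 8 it was 2.95 (adjusted p = 0.00108). Its level in HD anti-NK1.1 cells was 2.33 CPM per kb, against 21.1 CPM per kb for *Atp6v0a2*. *Atp6v0a4* shares 259 exon bases with *D630045J12Rik* on the same strand and 62 with *Tmem213* on the other, and the source of the reads within it was not tested.

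**Figure D4:**
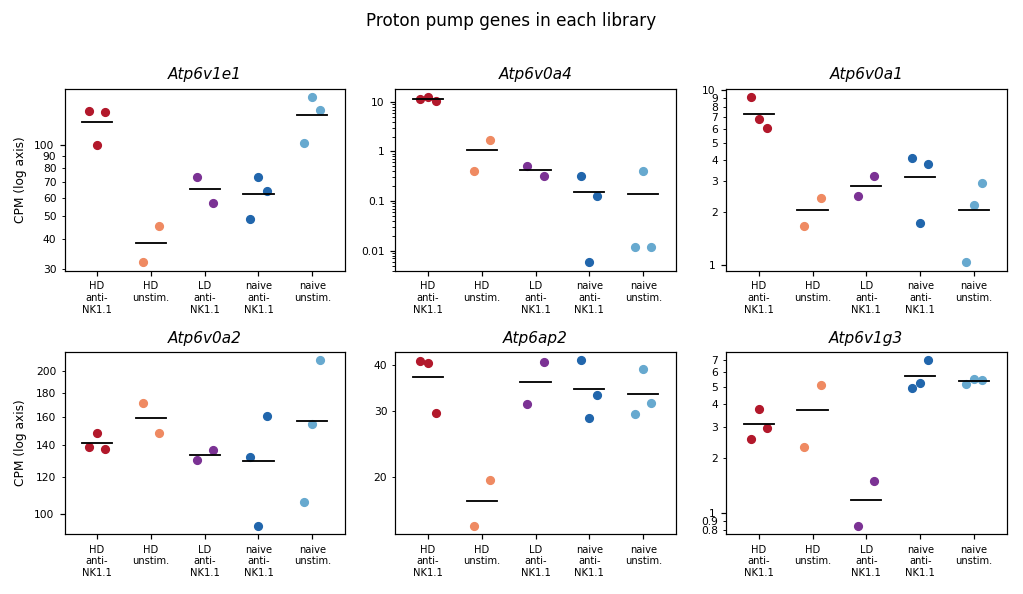
Level of 6 proton pump genes in each library (points, CPM on a log axis) with the group mean (line), for the 5 groups; for *Atp6v0a4*, points near 0.01 are libraries without a read. *Atp6v1e1* and *Atp6ap2* are lowest in the HD unstimulated libraries, and *Atp6v0a4* stands near 10 CPM in the stimulated HD libraries alone.

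*Atp6v0c*, the main proteolipid of the rotating ring, had very few reads for a core subunit and is uncertain, since 2 annotated pseudogenes are named after it and reads that fit several copies may have been counted elsewhere or dropped. Its reads numbered 0, 5 and 10 in HD anti-NK1.1, 1 and 0 in HD unstimulated, 12 and 5 in LD anti-NK1.1, 31, 41 and 12 in naive anti-NK1.1, and 0, 0 and 1 in naive unstimulated libraries. Only the stimulated naive libraries all held over 10. Per depth it was higher after anti-NK1.1 in naive cells by a ratio of 62 (95% counting interval 10.8 to 2480, from 84 and 1 reads; adjusted p = 0.00323). HD cells were lower than naive cells after anti-NK1.1 (-2.43 ± 0.89, adjusted p = 0.0381).

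Of the other V0 subunits, *Atp6v0d1*, which couples the ring to the central stalk, was lower in HD than in naive cells after anti-NK1.1, at 38.4 ± 3.54 CPM in HD cells against 68.8 ± 8.26 CPM in naive cells (-0.84 ± 0.21, adjusted p = 0.00566). Its partner form *Atp6v0d2* stood far lower, at 0.288 to 0.651 CPM per kb over the 5 groups against 21.4 to 38.4 for *Atp6v0d1*, and had no call. *Atp6v0b*, a second kind of ring proteolipid, and *Atp6v0e* had no call either.

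*Atp6ap2*, the accessory protein also called the (pro)renin receptor, joined *Atp6v1e1* and *Tfeb* in responding differently in HD and naive cells. It was read at 40.9, 40.4 and 29.7 CPM in HD anti-NK1.1 against 14.8 and 19.6 CPM in HD unstimulated libraries, at 31.4 and 40.7 CPM in LD anti-NK1.1, and at 41.2, 28.9 and 33.2 CPM in naive anti-NK1.1 against 29.6, 39.1 and 31.5 CPM in naive unstimulated libraries. The HD unstimulated pair stood alone below 20 CPM. *Atp6ap2* rose in HD cells (1.1 ± 0.25, adjusted p = 0.00381), changed by 0.04 ± 0.22 in naive cells, and was lower in HD than in naive cells without stimulation (-0.96 ± 0.25, adjusted p = 0.00899). The difference between the responses was 1.06 ± 0.34 (adjusted p = 0.0462), and it was called in 8 of 19 alternatives. *Atp6ap1*, the other accessory protein, was lower in HD than in naive unstimulated cells (-1.09 ± 0.25, adjusted p = 0.00397), at 35.6 and 45.4 CPM in HD libraries against 78.5, 97.6 and 82.4 CPM in naive libraries.

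In all, 13 of the 41 genes were called in none of the 7 comparisons, 9 in 1, 10 in 2, 5 in 3, 3 in 4 and 1, *Atp6v1e1*, in 6. The 13 were *Atp6v1b2*, *Atp6v1d*, *Atp6v1f*, *Atp6v1g1*, *Atp6v1g2*, *Atp6v0a2*, *Atp6v0b*, *Atp6v0d2*, *Atp6v0e*, *Ctso*, *Ctsz*, *Lamp2* and *Tfe3*.

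Further lysosomal genes were counted in lists of the same pathway, to be read beside the shares over all genes tested. With anti-NK1.1, 14.5% of all genes rose and 14.7% fell in naive cells, and 15.9% rose and 17.2% fell in HD cells. In HD against naive cells 16.6% were higher and 17.3% lower without stimulation, and 21.1% were higher and 22.4% lower after it. Of 41 other hydrolases and activators tested, 2 rose and 17 fell with anti-NK1.1 in naive cells and 1 rose and 13 fell in HD cells, with median changes of -0.50 and -0.57. *Arsb*, the arylsulfatase of dermatan sulfate, fell in both, to 35.6 CPM in HD anti-NK1.1 cells against 159 CPM in HD unstimulated cells (-2.15 ± 0.21, adjusted p = 3.71e-06), and to 49.1 CPM in naive anti-NK1.1 against 184 CPM in naive unstimulated cells (-1.90 ± 0.18, adjusted p = 4.87e-06). *Smpd1*, the acid sphingomyelinase, fell by 3.26 ± 0.30 on the log2 scale in HD cells (adjusted p = 2.35e-06), and the difference from the naive response was -2.32 ± 0.40 (adjusted p = 0.00139). *Acp5*, the tartrate-resistant acid phosphatase, fell in naive cells to 3.39 CPM after anti-NK1.1 against 70.2 CPM without it (-4.38 ± 0.31, adjusted p = 2.72e-07) and was lower in HD than in naive cells without stimulation (-4.18 ± 0.34, adjusted p = 6.14e-07).

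In HD against naive cells, 4 of these 41 other hydrolases were higher and 15 lower without stimulation, and 5 were higher and 19 lower after anti-NK1.1. *Psap*, the precursor of the saposins that present lipids to hydrolases, was lower in HD cells in both, at 51.7 CPM in HD against 342 CPM in naive cells after anti-NK1.1 (-2.73 ± 0.22, adjusted p = 4.57e-07) and 185 CPM in HD against 564 CPM in naive cells without it (-1.62 ± 0.25, adjusted p = 1.88e-04). In LD against naive cells 1 was higher and 4 lower, and in HD against LD cells 2 were higher and 2 lower. The interaction was called for 7 of the 41, 3 of them higher and 4 lower. Over all genes tested, 13.6% were called in LD against naive cells, 8.6% in HD against LD cells and 15.2% in the interaction.

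Of 45 other lysosomal membrane proteins, 4 rose and 12 fell in naive cells and 2 rose and 10 fell in HD cells. *Cd63*, a tetraspanin of lysosomes and secretory granules, rose in HD cells to 85.7 CPM after anti-NK1.1 against 10.1 CPM without it (3.07 ± 0.27, adjusted p = 1.7e-06), and its response was higher there than in naive cells by 2.67 ± 0.36 (adjusted p = 2.36e-04). Without stimulation *Cd63* was lower in HD than in naive cells, at 10.1 against 34.5 CPM (-1.76 ± 0.27, adjusted p = 1.87e-04). *Lmbrd1*, which takes part in lysosomal export of cobalamin, rose in naive cells (1.28 ± 0.19, adjusted p = 2.43e-04), and *Abca2*, a lipid transporter, fell in HD cells (-1.56 ± 0.31, adjusted p = 0.00136) and in naive cells (-1.54 ± 0.27, adjusted p = 8.72e-04). Of 40 genes that sort hydrolases to lysosomes, 4 rose and 9 fell in naive cells and 3 rose and 6 fell in HD cells. Over all genes tested 29.2% were called in the naive response and 33.1% in the HD response. *Sorl1*, a sorting receptor, fell in HD cells (-1.90 ± 0.22, adjusted p = 2.05e-05) and in naive cells (-1.29 ± 0.20, adjusted p = 2.55e-04), and the difference between the responses was not called.

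Of 33 regulators of TFEB and TFE3 and genes of lysosomal nutrient sensing, 7 rose and 4 fell in naive cells and 6 rose and 6 fell in HD cells. In HD against naive cells 2 were higher and 5 lower without stimulation, and 1 was higher and 11 lower after it. Of all genes tested 33.9% and 43.5% were called in these comparisons, and 29.2% and 33.1% in the responses of naive and HD cells. *Flcn*, whose product folliculin works with the Rag GTPases that hold TFEB and TFE3 at the lysosome, was lower in HD than in naive cells both after anti-NK1.1 (-1.36 ± 0.22, adjusted p = 2.76e-04) and without it (-1.51 ± 0.25, adjusted p = 3.65e-04). *Rheb*, the activator of mTORC1, rose in HD cells to 92.1 CPM after anti-NK1.1 against 36.2 CPM without it (1.34 ± 0.20, adjusted p = 1.76e-04).

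Of 32 autophagy genes, 3 rose and 4 fell in naive cells and 4 rose and 10 fell in HD cells, among them the mitophagy receptor gene *Bnip3*, at 10.3 CPM after anti-NK1.1 against 184 CPM without it in HD cells (-4.14 ± 0.28, adjusted p = 1.78e-07). In HD against naive unstimulated cells 3 of the 32 were higher and 7 lower, beside 33.9% of all genes called. *Bnip3* (4.42 ± 0.28, adjusted p = 4.79e-08) and *Atg9b* (4.89 ± 0.62, adjusted p = 3.39e-05) were among the higher ones. *Sqstm1*, an autophagy adaptor and a known target of TFEB, was lower, at 158 CPM in HD against 515 CPM in naive cells (-1.64 ± 0.26, adjusted p = 2.51e-04). A link between its level and that of *Tfeb* was not tested.

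The list of cathepsin inhibitors, granule serine proteases and their partners held more genes higher than lower in HD cells. Those with the smallest p were granzymes, with *Gzmc*, *Gzmd* and *Gzme* higher in HD than in naive cells in both comparisons. *Gzmm* was lower without stimulation (-3.64 ± 0.35, adjusted p = 2.43e-06). Of its 19 tested genes, 9 were higher and 2 lower in HD than in naive cells without stimulation, and 12 were higher and 2 lower after anti-NK1.1, with medians of 1.12 and 1.85. *Gzmb*, a granzyme that *Ctsc* activates, was at 2910 CPM in HD anti-NK1.1 cells against 199 CPM in naive anti-NK1.1 cells (3.89 ± 0.24, adjusted p = 3.15e-08). *Ctsc* itself differed between HD and naive cells by 0.29 ± 0.17 after anti-NK1.1 and by -0.06 ± 0.19 without it, and neither was called. *Serpinb9*, the inhibitor of granzyme B, rose with anti-NK1.1 in HD cells to 1130 CPM against 461 CPM in HD unstimulated cells (1.28 ± 0.21, adjusted p = 3.67e-04). With anti-NK1.1, 6 of the 19 rose and 2 fell in HD cells, and 2 rose and 4 fell in naive cells. *Gzma* fell in HD cells (-1.91 ± 0.26, adjusted p = 7.45e-05) and in naive cells (-1.52 ± 0.23, adjusted p = 2.62e-04).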

How the data were processed

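The deposited table holds log2 values, per the file itself log2 of quantile-normalised counts with 1 added, although it is named as counts. Values ran from 0 to 17.92, and 96.2% of low back-transformed values gave whole numbers within 0.05 when multiplied by the 13 libraries averaged in quantile normalisation. The unit was therefore read from the values. The authors' aligner and counting tool are not given in the sources used here. The build is mm10 per the submitters' processing notes, and libraries were strand-specific per the labels' protocols.

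Genes reaching 10 on the back-transformed scale in 2 or more libraries were kept, which removed 446 and left 11543. One limma 3.58.1 model (R 4.3.3, empirical Bayes with trend, 8 residual degrees of freedom) of 5 groups gave 7 two-sided contrasts. It was tested on simulated data. Members and lists were chosen with earlier results of these data known. All values are printed for members called in at least 3 comparisons or by at least 1.5 on the log2 scale. From each list, the up to 4 called genes per comparison with the smallest p could be named. Exon lengths, coordinates and shared exons come from GENCODE, which held 11983 of 11989 identifiers. Alternatives were a stricter filter and none, an offset of 8, median-ratio scaling, no trend, fits of the compared groups, a block for replicate number, library pool as a factor and each library left out. Of the 41 members, 2 are counted in totals but not reported here.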

Additional observations from a re-analysis of the deposited data

Results flagged for a closer look

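The response to anti-NK1.1 differed between HD and naive cells for 3 of the 41 genes (7.32%), by limma's test of the difference itself. Over all genes tested the share was 15.2%. *Atp6v1e1* responded more positively in HD than in naive cells by 2.80 ± 0.36 on the log2 scale (adjusted p = 1.56e-04), *Tfeb* by 1.85 ± 0.35 (adjusted p = 0.00268) and *Atp6ap2* by 1.06 ± 0.34 (adjusted p = 0.0462). For all 3 the HD unstimulated libraries were the lowest group. That group has 2 libraries, in a different pool from the naive ones, but each response lies within 1 pool. The first 2 were called whichever library was left out. *Atp6ap2* was called in 8 of 19 alternatives, and without HD unstimulated replicate 1 its difference was 0.86 (adjusted p = 0.179). The cause was not tested.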

How the results depend on the processing

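Another filter, no filter, median-ratio scaling, an offset of 8 and no variance trend kept every count of called members within 1.5 times its reported value and reversed no member. Library pool as a factor gave 5 calls for HD against naive unstimulated cells, 2 for HD against naive anti-NK1.1 cells, 3 for LD against naive cells and 1 for HD against LD cells. It also turned *Ctsb* in HD against naive anti-NK1.1 cells to 0.01 (adjusted p = 0.995). The fit of the compared groups alone gave 2 calls for HD against LD cells. Samples that share a replicate number did not deviate together (r from -0.143 to 0.162). At most 2 numbers were shared in a comparison, so these values cannot decide whether such samples were paired. With the replicate block, calls numbered 7 in the naive response, 7 and 8 in HD against naive cells without and with anti-NK1.1, 1 in LD against naive cells and 2 in HD against LD cells.

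Leaving out each library in turn gave 7 to 11 calls in the naive response, 5 to 10 in the HD response, 7 to 13 in HD against naive unstimulated cells, 11 to 14 in HD against naive anti-NK1.1 cells, 3 to 4 in LD against naive cells, 1 to 3 in HD against LD cells and 2 to 5 in the difference of responses. The 5 came without naive anti-NK1.1 replicate 1, which added *Atp6v0a4* and *Ctsh*. Where 1 HD unstimulated or LD library was left, it is assumed to vary like the other groups. The calls kept under all alternatives were 6 of 12 in the naive response, 3 of 10 in the HD response and 2 of 3 in their difference. They were 5 of 13 and 2 of 15 in HD against naive cells without and with anti-NK1.1, 1 of 5 in LD against naive cells and 1 of 4 in HD against LD cells. The causes of these changes were not tested. Depth limits *Atp6v0c*, *Atp6v0a4* and *Ctsg*, which had 0 to 5 reads in several libraries.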
